A study of Mus musculus with 2 samples.

Results

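The transcripts described here encode the actin, myosin and spectrin cytoskeleton, and their recovery with the RNA-binding protein FMRP was measured in mouse testis. They were found by their symbols, which cover the myosins and their kinase, the spectrins and ankyrins, the giant linker proteins, actin crosslinkers, actin nucleators, filament regulators and actin-binding adaptors. Of the 4788 genes in the deposited table, 83 carry such a symbol. By the start of the symbol alone, the rule also took in *Cttnbp2nl* and *Nckap5*, which are not core actin genes. RNA immunoprecipitation sequencing (RIP-seq) compares the RNA that precipitates with a protein against the RNA of the lysate it came from. Both groups came from testes of wild-type adult males, without any treatment beyond the precipitation: the input is an aliquot of the lysate kept before it, and the FMRP RIP is the RNA recovered with an anti-FMRP antibody. Each group is 1 library, no IgG library was used here, and so no value below has a replicate check or a test between groups.

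Every gene in the table had already been called higher in the FMRP RIP by the authors. That each of the 83 genes lies above its input level is therefore a property of the table and not a result. What the values can show is how far apart the members are. No measurement is given here for genes outside the table. Values are CPM, read numbers per gene normalised to the size of the library. A single read stood for 0.0324 CPM in input RNA and 0.0274 CPM in FMRP RIP RNA. CPM is not divided by transcript length, so it is compared between the libraries and not between genes. Enrichment is given as the plain ratio of FMRP RIP to input. Its exact Clopper-Pearson 95% interval comes from the rounded reads and covers counting error only. With 1 library a group, the interval holds no spread between samples or preparations. It also takes reads as independent, which sequenced PCR copies are not, so it may be too narrow. Enrichment is also given as the log2 ratio after 1 CPM was added to both values, which understates the ratio of low genes. In whole testis, fewer cells of a type and less RNA per cell cannot be told apart.

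FMRP, the product of *Fmr1* and the protein lost in fragile X syndrome, binds messenger RNAs, largely in their coding regions, and holds back their translation on ribosomes. Actin filaments are assembled by nucleators, crosslinked and tied to the membrane by spectrin, ankyrin and adhesion proteins, and pulled on by myosin motors. In the seminiferous epithelium actin is known for the junctions between Sertoli cells and spermatids, for the skeleton beneath the acrosome, and for the bridges that join dividing germ cells. FMRP is itself tied to this system, because the proteins CYFIP1 and CYFIP2 were named for their interaction with it and are also subunits of the WAVE complex that switches on actin branching.

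Recovery with FMRP varied widely among the cytoskeleton transcripts. The log2 ratio of the 83 genes ran from 0.47 for *Coro2b* to 4.86 for *Dst*, with a median of 1.72 and quartiles of 1.13 and 2.37. Over all listed genes the median was 1.35, with quartiles of 0.92 and 2.0. A log2 ratio above 1 was reached by 68 of the 83 (81.9%) beside 70.1% of all listed genes, a log2 ratio above 2 by 29 (34.9%) beside 25.0%, and one above 3 by 8 (9.64%) beside 6.62%. At the ratio limit of 1.5, taken with the added 1 CPM, stood 82 of the 83 (98.8%) beside 97.3% of all listed genes. The selection of the table used the same limit on the fold change, so this count was fixed by it. The exception, *Coro2b*, arises from the added 1 CPM alone, and without it all 83 reached the limit. With 5 CPM added in place of 1 CPM, the median of the members fell to 1.12 and that of all listed genes to 1.04. Among the 240 listed genes with the highest log2 ratios, the top 5%, were 4 members, *Dst*, *Plec* and *Macf1* among them, and among the 240 with the lowest were *Myo6*, *Swap70* and *Coro2b*. These are 4.82% and 3.61% of the members.

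**Figure D1:**
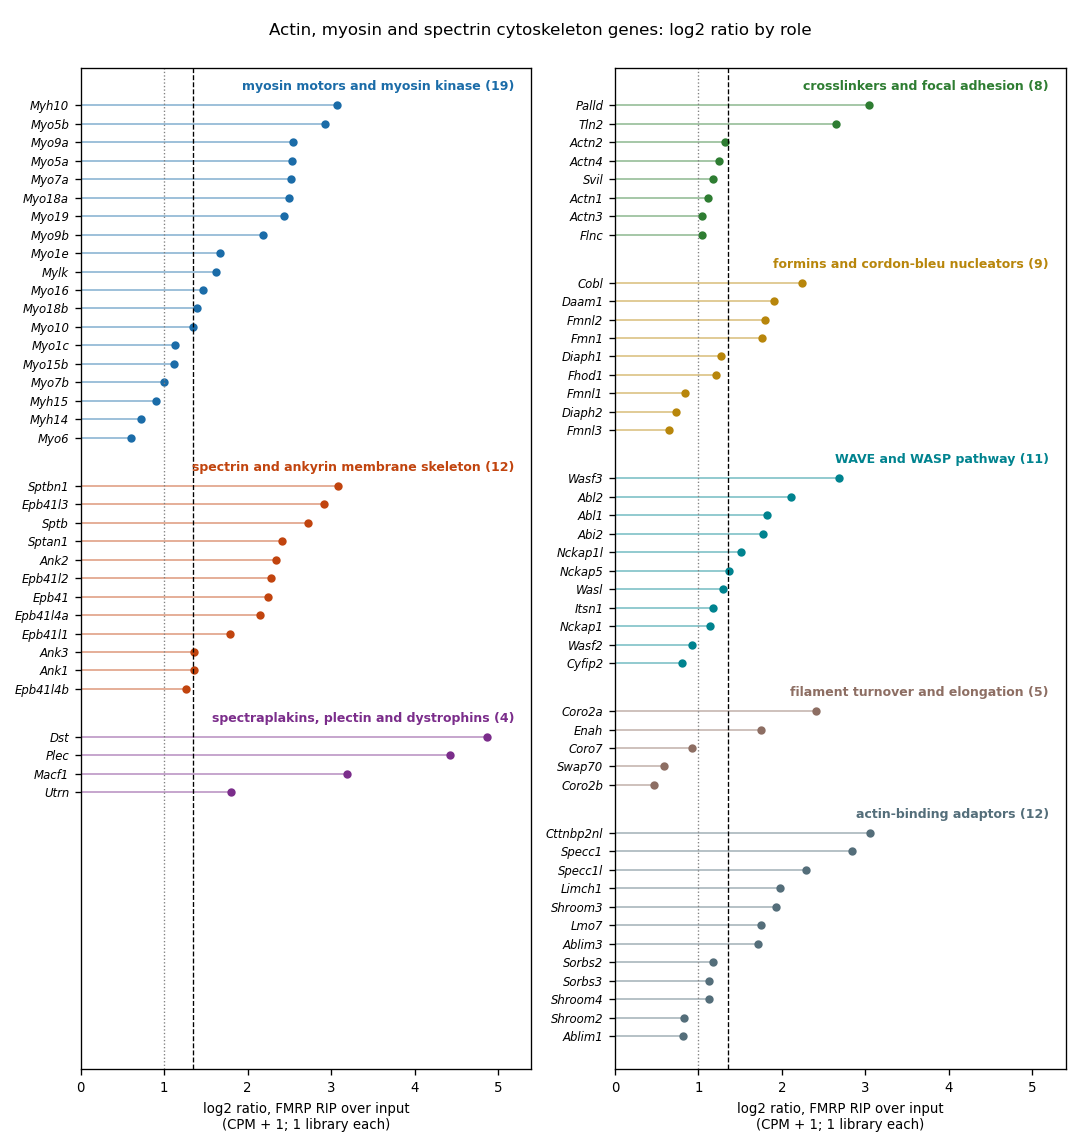
Each point is the log2 ratio of 1 gene, FMRP RIP over input with 1 CPM added to both values, from 1 library each, and genes are grouped by role with the number drawn in parentheses, 80 of the 83 in all. The dashed line marks the median of all listed genes at 1.35 and the dotted line a log2 ratio of 1. *Dst* and *Plec* reach furthest to the right and *Coro2b* is lowest at 0.47. All 12 spectrin and ankyrin genes drawn lie above 1, beside 70.1% of all listed genes.

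The giant linkers that join actin to microtubules, intermediate filaments and the membrane had the highest median log2 ratio of the 8 role groups, 3.81 over 4 genes. *Dst* (ENSMUSG00000026131, mm10 chromosome 1 from 33908225 to 34308661) encodes dystonin, a spectraplakin, and had 16.4 CPM in input RNA and 506 CPM in FMRP RIP RNA. Its ratio was 30.8 (interval 28.3 to 33.8) and its log2 ratio 4.86, which placed it at rank 15 of the 4788 listed genes. *Plec* (ENSMUSG00000022565, chromosome 15 from 76170974 to 76232574), which encodes plectin, the linker of intermediate filaments, had 81.6 CPM in input RNA and 1769 CPM in FMRP RIP RNA. That is a ratio of 21.7 (interval 20.8 to 22.6, log2 ratio 4.42), at rank 39. *Plec* had 2516 input reads against 506 for *Dst*, and its ratio was the lower, with intervals that do not overlap. *Macf1* (ENSMUSG00000028649, chromosome 4 from 123349633 to 123684360), the spectraplakin closest to dystonin, had 19.7 CPM in input RNA and 188 CPM in FMRP RIP RNA, a ratio of 9.54 (interval 8.78 to 10.4). Its interval lies below those of both. *Utrn*, which encodes utrophin, the dystrophin relative that anchors actin to the membrane, was lowest of this group with 7.65 CPM in input RNA and 29.2 CPM in FMRP RIP RNA, a ratio of 3.81 (interval 3.31 to 4.41) and a log2 ratio of 1.80. Dystrophin itself, *Dmd*, was not among the listed genes.

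*Plec* and *Dst* together accounted for 7.36% of the members' summed input level and 28.9% of their summed level in the RIP. *Plec* alone accounted for 6.12% and 22.5%. The 83 genes summed to 0.133% of the input library and 0.787% of the RIP library, and the ratio of these sums was 5.91. For all listed genes, these shares were 14.2% and 55.2%, a ratio of 3.89. Without *Plec* and *Dst* the ratio of the members' sums was 4.54 and their median log2 ratio 1.67, so the sum depends on this pair far more than the median does.

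Spectrin forms a meshwork under the plasma membrane, ankyrins attach it to membrane proteins, and the protein of *Epb41* fixes it to short actin filaments. The 14 listed spectrin, ankyrin and *Epb41* family genes had a median log2 ratio of 2.26, beside 1.35 for all listed genes. All of them were above 1 and 9 (64.3%) above 2, beside 70.1% and 25.0% of all listed genes. With 5 CPM added in place of 1 CPM, *Ank1* fell to 0.56 and *Epb41l4b* to 0.63, while *Ank2*, *Sptan1*, *Epb41l1* and *Epb41l4a* stayed above 1. *Sptan1* (ENSMUSG00000057738, chromosome 2 from 29965560 to 30031451), the alpha spectrin chain of most tissues, had 71.7 CPM in input RNA and 386 CPM in FMRP RIP RNA, a ratio of 5.38 (interval 5.15 to 5.63, log2 ratio 2.41). *Sptbn1*, the widely expressed beta chain, had 12.4 CPM in input RNA and 113 CPM in FMRP RIP RNA, a ratio of 9.08 (interval 8.18 to 10.1) and a log2 ratio of 3.08, and its interval lies above that of *Sptan1*. For *Sptb*, the erythrocyte beta chain, 7.65 CPM and 55.9 CPM gave 7.30 (interval 6.38 to 8.39), and the intervals of *Sptb* and *Sptbn1* overlap. *Sptbn4* and *Sptbn5* were not listed.

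The ankyrins spread over a range. *Ank2* (ENSMUSG00000032826, chromosome 3 from 126921612 to 127499350), one of the members with most input reads, had 69.7 CPM in input RNA and 357 CPM in FMRP RIP RNA, a ratio of 5.12 (interval 4.89 to 5.36, log2 ratio 2.34). *Ank3* had 4.60 CPM and 13.4 CPM and a ratio of 2.90 (interval 2.40 to 3.53), below the interval of *Ank2*. The erythrocyte ankyrin *Ank1* had 0.746 CPM and 3.45 CPM, and its 23 input reads leave its ratio of 4.63 (interval 2.95 to 7.57, log2 ratio 1.35) overlapping both. In the *Epb41* family 6 of 7 reference genes were listed. The highest ratio belonged to *Epb41l3*, with 18.2 CPM in input RNA and 144 CPM in FMRP RIP RNA and 7.90 (interval 7.24 to 8.64), clear of *Epb41l2* with 60.3 CPM and 297 CPM and 4.92 (interval 4.68 to 5.17). *Epb41* itself, with 3.31 CPM and 19.4 CPM, had 5.86 (interval 4.75 to 7.28). *Epb41l4a* had 2.24 CPM and 13.3 CPM and a ratio of 5.96 (interval 4.63 to 7.79, log2 ratio 2.15), and *Epb41l1*, had 2.43 CPM and 10.9 CPM and 4.47 (interval 3.49 to 5.80, log2 ratio 1.79), and the intervals of both overlap that of *Epb41*. Lowest of the whole membrane skeleton by log2 ratio was *Epb41l4b* at 1.26, from 1.62 CPM and 5.26 CPM and a ratio of 3.25 (interval 2.37 to 4.52).

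**Figure D2:**
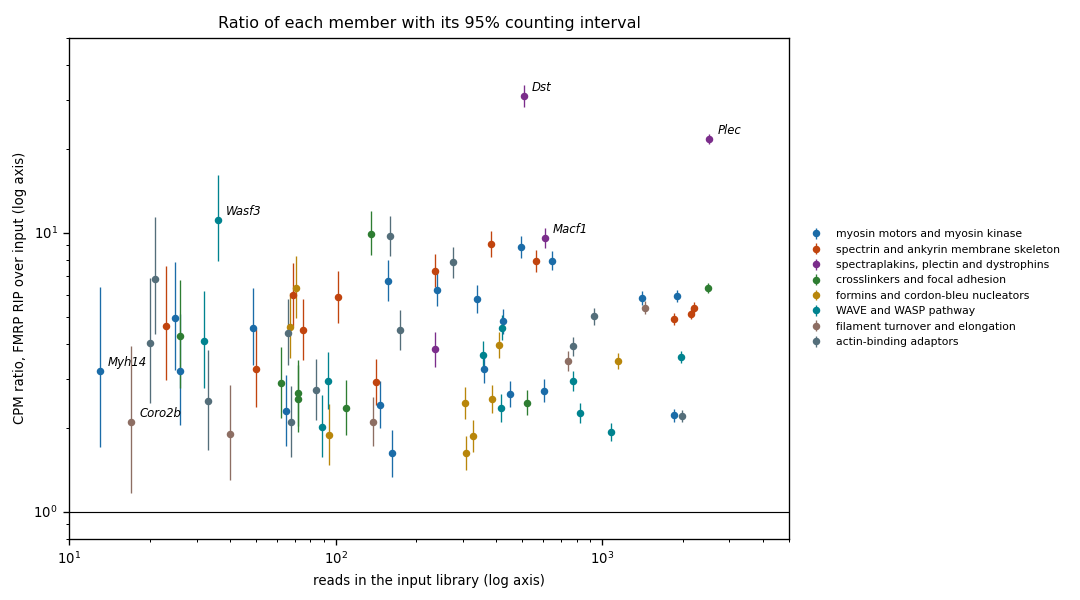
Each point is 1 of 80 of the 83 genes, with its reads in the input library on the x axis and the CPM ratio of FMRP RIP over input on the y axis, both on log scales, coloured by role. Bars are exact 95% intervals that cover counting error only, and the horizontal line marks a ratio of 1. *Dst* and *Plec* lie above all other genes drawn, and the intervals widen where input reads are few, as for *Myh14* with 13 reads and *Coro2b* with 17.

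Myosins are the motors that move along actin, and the *Mylk* kinase activates the non-muscle and smooth muscle forms. The 19 listed genes had a median log2 ratio of 1.62, beside 1.35 for all listed genes. Of them 15 (78.9%) were above 1 and 8 (42.1%) above 2, beside 70.1% and 25.0% of all listed genes. Among the conventional (class II) heavy chains, *Myh10* (ENSMUSG00000020900, chromosome 11 from 68691559 to 68816632), non-muscle myosin IIB, was highest with 16.1 CPM in input RNA and 143 CPM in FMRP RIP RNA, a ratio of 8.87 (interval 8.09 to 9.74) and a log2 ratio of 3.07. The related *Myh14*, non-muscle myosin IIC, had 0.421 CPM and 1.34 CPM, and *Myh15* had 2.11 CPM and 4.82 CPM. The ratios of these low genes were 3.19 (interval 1.70 to 6.40, log2 ratio 0.72) and 2.29 (interval 1.71 to 3.09, log2 ratio 0.91), both below the interval of *Myh10*. The other 11 class II heavy chains of the reference were not listed, among them non-muscle *Myh9*, smooth muscle *Myh11* and all 9 genes of skeletal and cardiac muscle.

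Cargo-carrying and signalling myosins filled the next places. *Myo5b* and *Myo5a*, motors of vesicles and organelles, had 21.0 CPM and 167 CPM for the first and 5.09 CPM and 34.2 CPM for the second. Their ratios of 7.94 (interval 7.32 to 8.62) and 6.72 (interval 5.69 to 7.99) overlap, with 647 input reads behind the first and 157 behind the second. *Myo9a* (chromosome 9 from 59750896 to 59928866), a motor with a signalling domain, had 61.8 CPM in input RNA and 366 CPM in FMRP RIP RNA, a ratio of 5.92 (interval 5.64 to 6.22). Its paralogue *Myo9b* had 13.7 CPM and 66.1 CPM and a lower ratio of 4.81 (interval 4.33 to 5.34). *Myo7a*, best known from the hair cells of the ear and also found in the testis, had 45.6 CPM in input RNA and 266 CPM in FMRP RIP RNA, a ratio of 5.84 (interval 5.52 to 6.18). *Myo7b* had 0.843 CPM and 2.68 CPM, and its ratio of 3.19 (interval 2.05 to 5.12, log2 ratio 0.9995) lies below. *Myo19*, the motor of mitochondria, had 11.0 CPM and 63.6 CPM and a ratio of 5.79 (interval 5.16 to 6.51). The class XVIII myosins were far apart. *Myo18a* had 7.78 CPM and 48.5 CPM and a ratio of 6.24 (interval 5.45 to 7.17), whereas *Myo18b* had 19.5 CPM and 53.1 CPM and 2.72 (interval 2.48 to 2.98).

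Some other myosins had lower ratios. *Myo1c*, a membrane-bound single-headed motor, had 60.4 CPM in input RNA and 134 CPM in FMRP RIP RNA and a ratio of only 2.21 (interval 2.10 to 2.34). *Myo10*, the motor of filopodia, had 14.7 CPM and 38.7 CPM and 2.64 (interval 2.37 to 2.94). *Myo6* (ENSMUSG00000033577, chromosome 9 from 80165031 to 80311729), the motor that moves towards the minus end of actin and is known for its part in spermatid individualisation in flies, was lowest of all myosins by log2 ratio, 0.60, with 5.25 CPM in input RNA and 8.49 CPM in FMRP RIP RNA and a ratio of 1.62 (interval 1.33 to 1.97). The intervals of all of these lie below that of *Myh10*. *Mylk* had 11.7 CPM and 38.1 CPM, a ratio of 3.26 (interval 2.90 to 3.67). The low genes *Myo16*, with 0.810 CPM and 3.999 CPM, and *Myo1e*, with 1.59 CPM and 7.23 CPM, had ratios of 4.93 (interval 3.21 to 7.88, log2 ratio 1.47) and 4.55 (interval 3.35 to 6.31, log2 ratio 1.67). *Myo15b* had 4.73 CPM and 11.4 CPM and a ratio of 2.41 (interval 1.99 to 2.93).

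Crosslinkers bundle actin filaments, and the adhesion proteins couple them to integrins. All 8 of these genes had a log2 ratio above 1, beside 70.1% of all listed genes. However, 6 of them lay between 1.04 and 1.32, below the median of all listed genes, and the group median was 1.21. The other two stood apart. *Palld* (ENSMUSG00000058056, chromosome 8 from 61511433 to 61902690), which encodes the scaffold palladin, had 4.38 CPM in input RNA and 43.4 CPM in FMRP RIP RNA, a ratio of 9.92 (interval 8.31 to 11.9). *Tln2* (ENSMUSG00000052698, chromosome 9 from 67217087 to 67559703), the second talin, which links integrins to actin, had 81.0 CPM in input RNA and 512 CPM in FMRP RIP RNA, a ratio of 6.33 (interval 6.07 to 6.60, log2 ratio 2.65). *Tln1*, *Vcl* and *Flna* were not listed. All 4 alpha-actinin genes were. *Actn4*, the member of the family with most reads, had 17.0 CPM and 41.7 CPM and 2.46 (interval 2.23 to 2.72), and the other members were low. *Actn1* had 2.33 CPM and 6.19 CPM, a ratio of 2.65 (interval 2.03 to 3.51, log2 ratio 1.11). *Actn3* had 2.33 CPM and 5.89 CPM, a ratio of 2.52 (interval 1.92 to 3.34, log2 ratio 1.05). *Actn2* had 0.843 CPM and 3.59 CPM, a ratio of 4.26 (interval 2.78 to 6.76, log2 ratio 1.32) on 26 input reads. The intervals of *Actn4* and *Actn1* overlap, as do those of *Actn2* and *Actn3*. *Svil*, the membrane-associated supervillin, had 2.01 CPM and 5.81 CPM, a ratio of 2.89 (interval 2.17 to 3.90, log2 ratio 1.18). *Flnc*, the muscle filamin, was lowest at a log2 ratio of 1.04, with 3.53 CPM and 8.33 CPM and a ratio of 2.36 (interval 1.89 to 2.96). These log2 positions hold for 1 CPM added. With 5 CPM added *Actn1*, *Actn2*, *Actn3*, *Flnc* and *Svil* lay between 0.56 and 0.64, while *Palld* and *Tln2* stayed above 1. With none added *Actn2* reached 2.09, above the median of all listed genes at 1.61.

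Formins build unbranched filaments, and cordon-bleu, encoded by *Cobl*, nucleates them in another way. The 9 genes had a median log2 ratio of 1.27, with 6 (66.7%) above 1 and none above 3. Over all listed genes these shares were 70.1% and 6.62%. *Cobl* was highest at 2.24, from 2.30 CPM in input RNA and 14.6 CPM in FMRP RIP RNA, a ratio of 6.34 (interval 4.94 to 8.25). Among the formins, *Daam1* led by log2 ratio with 13.3 CPM and 52.5 CPM and a ratio of 3.95 (interval 3.55 to 4.41). *Fmn1* (ENSMUSG00000044042, chromosome 2 from 113327736 to 113716767) was the formin with most reads, 37.0 CPM in input RNA and 128 CPM in FMRP RIP RNA, and its ratio was 3.47 (interval 3.25 to 3.70). The 3 formin-like genes were spread out. *Fmnl2* had 2.17 CPM and 9.998 CPM and a ratio of 4.60 (interval 3.54 to 6.07, log2 ratio 1.79). *Fmnl1* and *Fmnl3* had ratios of 1.87 (interval 1.64 to 2.13) and 1.62 (interval 1.41 to 1.86), both below that interval and overlapping each other, and *Fmnl3* was lowest of the formins at a log2 ratio of 0.64, from 10.02 CPM and 16.2 CPM. *Diaph1* had 12.5 CPM and 31.7 CPM and a ratio of 2.53 (interval 2.25 to 2.84), and *Fhod1* 9.92 CPM and 24.3 CPM and a ratio of 2.45 (interval 2.15 to 2.80). *Diaph2*, on the X chromosome, had 3.05 CPM and 5.74 CPM and 1.88 (interval 1.47 to 2.43, log2 ratio 0.74).

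WAVE and WASP proteins switch on the Arp complex that branches actin, and they are grouped here with the Abl kinases and the intersectin scaffold that act on them. These 11 genes had a median log2 ratio of 1.36, close to that of all listed genes. Of the 11, 9 (81.8%) were above 1, beside 70.1% of all listed genes. *Cyfip2*, whose protein binds FMRP, was the lowest of them by log2 ratio, 0.81. It had 2.88 CPM in input RNA and 5.81 CPM in FMRP RIP RNA, a ratio of 2.01 (interval 1.56 to 2.61) from 89 input reads. By plain ratio *Wasf2* was lower, at 1.93, and the intervals of *Cyfip2* and *Wasf2* overlap. *Cyfip1* was not listed. Of the other WAVE subunits, *Nckap1* had 26.7 CPM and 60.2 CPM and a ratio of 2.25 (interval 2.08 to 2.45), and *Nckap1l*, known from blood cells, had 25.1 CPM and 73.5 CPM and the higher ratio of 2.93 (interval 2.71 to 3.18). *Abi2* had 11.5 CPM and 41.8 CPM and a ratio of 3.63 (interval 3.23 to 4.09). The WAVE proteins themselves were far apart. *Wasf3* was highest at a log2 ratio of 2.69, with 1.17 CPM in input RNA and 12.98 CPM in FMRP RIP RNA and a ratio of 11.1 (interval 7.92 to 16.1) on 36 input reads. *Wasf2* had 1075 input reads, 34.8 CPM and 67.1 CPM, and a ratio of 1.93 (interval 1.79 to 2.07), and the intervals are far apart. *Abl1* had 64.1 CPM and 229 CPM and 3.58 (interval 3.41 to 3.76), below *Abl2* with 13.6 CPM and 62.2 CPM and 4.57 (interval 4.11 to 5.08). *Wasl*, the WASP protein found in most tissues, had 3.01 CPM and 8.85 CPM and a ratio of 2.93 (interval 2.32 to 3.74, log2 ratio 1.29), and *Itsn1* had 13.5 CPM and 31.7 CPM and 2.36 (interval 2.10 to 2.64). *Nckap5*, taken in by its symbol, had 1.04 CPM and 4.25 CPM and a ratio of 4.09 (interval 2.78 to 6.19, log2 ratio 1.36).

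Of 18 reference genes grouped by symbol as turning over, capping or elongating filaments, 5 were listed (27.8%), beside 21.2% of all protein-coding reference genes. The 18 include *Cflar*, matched only through the start of its symbol and not listed. The median log2 ratio of the 5 was 0.93, with 2 above 1 (40.0%), beside 1.35 and 70.1% for all listed genes. *Coro2a*, a coronin, was highest with 46.9 CPM in input RNA and 252 CPM in FMRP RIP RNA, a ratio of 5.38 (interval 5.09 to 5.69). *Coro2b*, its closest relative, had 0.551 CPM in input RNA and 1.15 CPM in FMRP RIP RNA, which is 17 input reads, and its ratio of 2.09 (interval 1.16 to 3.91) lies below that of *Coro2a*. *Enah*, which keeps filament ends growing, had 24.2 CPM and 83.7 CPM and a ratio of 3.46 (interval 3.19 to 3.76). *Coro7*, a coronin of the Golgi, had 4.46 CPM and 9.37 CPM and 2.10 (interval 1.71 to 2.57), and its annotation overlaps that of *Vasn*. *Swap70*, which binds actin filaments and activates Rac, had 1.30 CPM and 2.47 CPM and 1.90 (interval 1.30 to 2.83, log2 ratio 0.59). No cofilin (2 reference genes), twinfilin (2) or tropomodulin (4) was listed, numbers too small to set against that share.

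Adaptors that recruit actin to membranes and junctions formed the last group. Their 13 genes had a median log2 ratio of 1.72, with 10 (76.9%) above 1, beside 70.1% of all listed genes. *Cttnbp2nl*, which was matched through the start of its symbol, was highest at 3.05, with 5.19 CPM in input RNA and 50.3 CPM in FMRP RIP RNA and a ratio of 9.71 (interval 8.26 to 11.5). Next were the cytospins, proteins that bridge actin and microtubules. *Specc1* had 8.88 CPM and 69.5 CPM and a ratio of 7.82 (interval 6.90 to 8.90), clear above *Specc1l* with 30.1 CPM and 151 CPM and 5.02 (interval 4.68 to 5.39). *Shroom3*, known for apical constriction of epithelia, had 25.2 CPM and 98.6 CPM and 3.92 (interval 3.63 to 4.24). *Shroom2* and *Shroom4*, both on the X chromosome, had 1.07 CPM and 2.66 CPM for the first and 0.648 CPM and 2.60 CPM for the second. Their ratios of 2.48 (interval 1.66 to 3.81, log2 ratio 0.82) and 4.01 (interval 2.46 to 6.87, log2 ratio 1.13) have intervals that overlap. *Limch1*, with 5.64 CPM and 25.3 CPM, had a ratio of 4.48 (interval 3.80 to 5.30), and *Lmo7* had 0.681 CPM and 4.66 CPM and 6.84 (interval 4.33 to 11.3, log2 ratio 1.75) on 21 input reads. *Ablim3* had 2.14 CPM and 9.34 CPM and 4.37 (interval 3.35 to 5.77, log2 ratio 1.72), above *Ablim1* with 2.20 CPM and 4.63 CPM and 2.10 (interval 1.58 to 2.83, log2 ratio 0.81). The sorbin proteins, adaptors of adhesion sites, included low ratios. *Sorbs3* had 64.7 CPM in input RNA and 143 CPM in FMRP RIP RNA and a ratio of 2.20 (interval 2.09 to 2.32, log2 ratio 1.13). *Sorbs2* had 2.72 CPM and 7.42 CPM and 2.73 (interval 2.13 to 3.53, log2 ratio 1.18), and the intervals of these overlap.

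The pairs of relatives set side by side in these paragraphs were chosen after their values were seen, and intervals that cover counting error alone separate many pairs of well-read genes, so no count of such pairs is given.

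**Figure D3:**
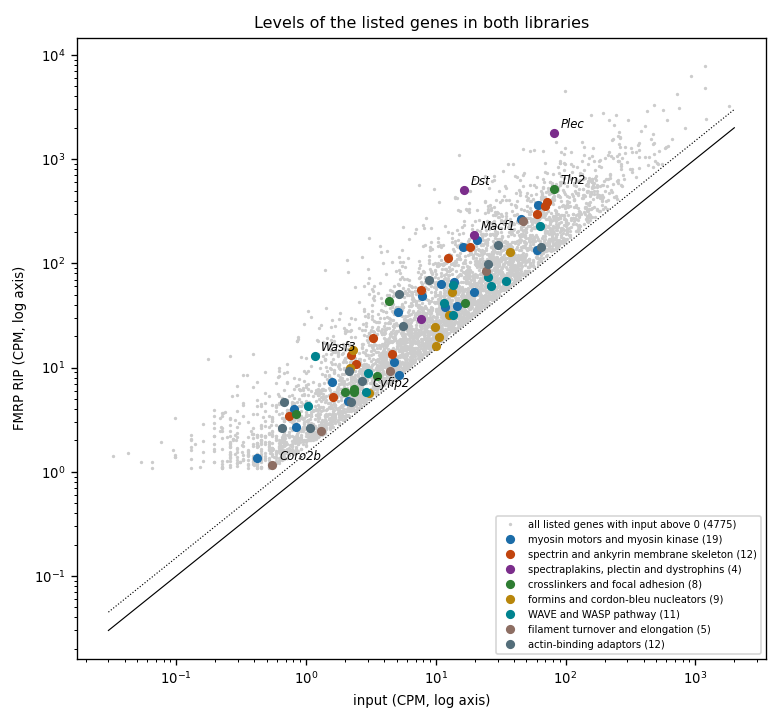
Each point is 1 listed gene, with its level in the input on the x axis and in the FMRP RIP on the y axis, in CPM on log axes. Grey points are the 4775 listed genes with an input above 0, coloured points 80 of the 83 cytoskeleton genes by role, the solid line marks equal levels and the dotted line a ratio of 1.5. No point falls below the dotted line, since the table holds only genes called higher, and *Dst* and *Plec* lie furthest above the line of equal levels among the coloured points.

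The members' levels in the input ran from 0.421 CPM for *Myh14* to 81.6 CPM for *Plec*, with a median of 7.65 CPM, and their median in the RIP library was 31.7 CPM. For all listed genes these medians were 9.27 CPM and 30.6 CPM. No member reached 100 CPM in the input. The log2 ratio with 1 CPM added was higher where the input was higher. Its median was 1.22 for the 8 members under 1 CPM, 1.36 for the 38 from 1 to under 10 CPM and 1.93 for the 37 from 10 to under 100 CPM. In the same ranges all listed genes had medians of 1.0, 1.29 and 1.54. Across the 83 genes the rank correlation of the log2 ratio with the input level was 0.39, and across all 4788 it was 0.25. Both values share the input library, and the added 1 CPM lowers the ratio of low genes. These are descriptions, and a rise of recovery with input cannot be read from them. Fewer than 100 input reads stood behind 30 of the 83 ratios.

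Cytoskeleton genes are long, which the choice by symbol did not use. Gene span, the distance from a gene's first to its last base with introns included, had a median of 130.0 kb for the members and 47.5 kb for all listed genes. Members under 50 kb had a median log2 ratio of 1.13 (n = 10), those from 50 to under 100 kb 1.31 (n = 22), those from 100 to under 200 kb 1.75 (n = 25) and those of 200 kb or more 1.80 (n = 26). For all listed genes the medians of these ranges were 1.23, 1.51, 1.60 and 1.40. The rank correlation between span and log2 ratio was weak, 0.22 across the members and 0.16 across all listed genes. *Plec*, second by log2 ratio, spans 61.6 kb, below the median of the members, and *Dst* spans 400.4 kb.

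The mouse reference (RefSeq, GRCm38.p6) has 144 protein-coding genes whose symbols fit the rule, and 83 of them were listed (57.6%), beside 21.2% of all 21896 protein-coding genes. The reference may include genes that testis does not express. By role, the share listed was 82.4% for the spectrin and ankyrin genes (14 of 17), 80.0% for the giant linkers (4 of 5), 72.2% for the adaptors (13 of 18), 66.7% for crosslinkers and adhesion genes (8 of 12), 64.7% for the WAVE and WASP genes (11 of 17), 64.3% for the formins and *Cobl* (9 of 14), 44.2% for the myosins (19 of 43) and 27.8% for filament turnover (5 of 18). Span moved with this share. Matching genes that were listed had a median span of 131 kb and those that were not 55.1 kb. Under 50 kb 25.6% of the matching genes were listed beside 13.9% of all reference genes, from 50 to under 100 kb 61.1% beside 43.0%, from 100 to under 200 kb 69.4% beside 50.2%, and at 200 kb or more 78.8% beside 47.3%. The part of span and of expression in these shares was not tested.

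**Figure D4:**
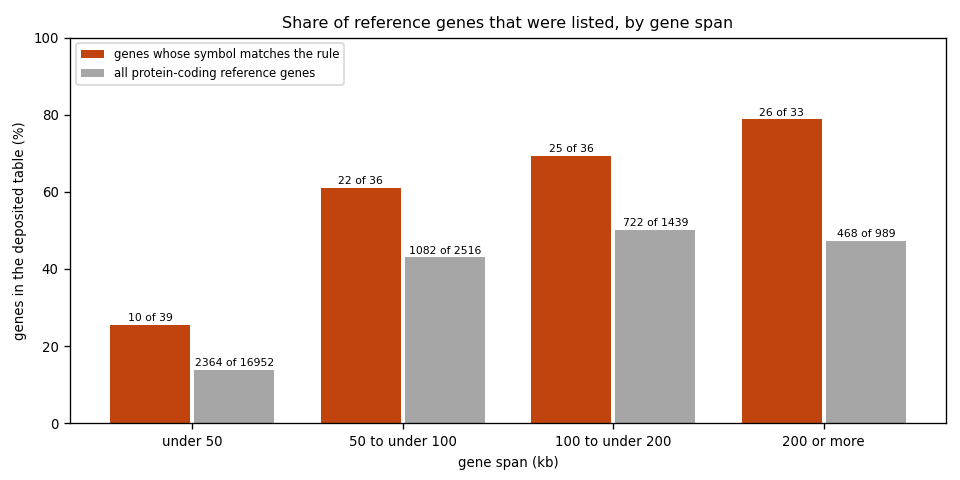
Bars give the percent of protein-coding reference genes found in the deposited table, by gene span in kb, for the genes whose symbols fit the rule and for all reference genes, with the numbers above each bar. The share is higher for the matching genes in each of the 4 ranges, from 25.6% beside 13.9% for the shortest to 78.8% beside 47.3% for the longest.

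Other parts of the actin system were counted from a list of 108 genes in 21 families outside the rule, of which 35 were listed (32.4%) beside 21.2% of all reference genes. Their median log2 ratio was 1.57 beside 1.35 for all listed genes, and 26 of the 35 were above 1, close to the 70.1% of all listed genes. The actin-regulating kinases put on the list were *Rock1*, *Rock2*, *Cdc42bpa*, *Cdc42bpb*, *Pak1* and *Pak2*, chosen with earlier results of these data known. All 6 were listed, with a log2 ratio above 1. *Cdc42bpa*, which encodes a myosin-activating kinase, led them with 3.95 CPM in input RNA and 101 CPM in FMRP RIP RNA. Its ratio was 25.6 (interval 21.3 to 30.9), at rank 42 of the listed genes. *Rock2* had 2.38 CPM and 19.5 CPM and a ratio of 8.21 (interval 6.47 to 10.6), and *Rock1* had 6.49 CPM and 25.03 CPM and 3.86 (interval 3.31 to 4.52). Of the 4 genes that target myosin phosphatase to actomyosin 3 were listed, and *Mprip* had 262 CPM in input RNA and 1314 CPM in FMRP RIP RNA, a ratio of 5.02 (interval 4.91 to 5.14). Of the ezrin, radixin and moesin genes, which tie actin to the membrane, *Ezr* and *Rdx* had ratios of 6.66 and 5.38. The nucleators *Spire1*, *Whamm* and *Jmy* had ratios of 4.04, 3.40 and 4.10.

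The counts of the small families lie beside 21.2% for all reference genes and were not tested. None of the 4 profilins, 4 tropomyosins or 5 myosin light chains was listed, and 1 of 10 subunits of the Arp complex was, *Arpc1b*, with 7.31 CPM and 18.1 CPM and a ratio of 2.48 (interval 2.13 to 2.90). Of the actins, *Actg2* alone was listed, with 126 CPM in input RNA and 236 CPM in FMRP RIP RNA, a ratio of 1.87 (interval 1.80 to 1.94). Among 7 actin-like genes of the testis, *Actl11* alone was listed. It had 134 CPM in input RNA and 957 CPM in FMRP RIP RNA, a ratio of 7.16 (interval 6.94 to 7.40). *Capza1*, an alpha subunit of capping protein, had 102 CPM and 368 CPM and 3.60 (interval 3.46 to 3.75), and *Tesk1*, a testis kinase that acts on cofilin, had 266 CPM and 863 CPM and 3.24 (interval 3.17 to 3.32).

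**Figure D5:**
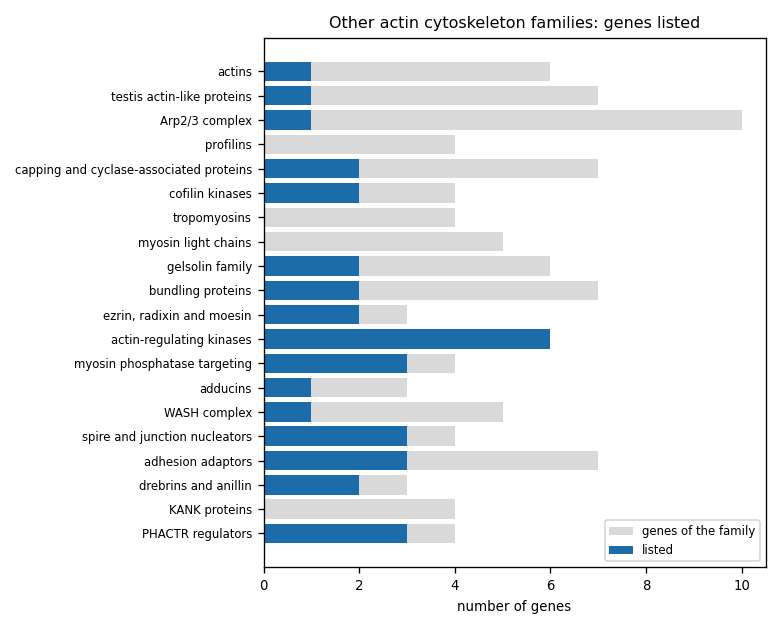
Bars give the number of genes in each of 20 of the 21 further actin cytoskeleton families (grey) and how many of them were in the deposited table (blue), with the number of genes on the x axis. All 6 actin-regulating kinases chosen for the list were in the deposited table, and none of the profilins, tropomyosins, myosin light chains or KANK proteins was.

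The microtubule motors and filaments stand beside the actin system as another cytoskeleton. The 34 listed kinesin genes had a median log2 ratio of 1.5, with 28 above 1 (82.4%). The 28 listed tubulin and microtubule-associated genes had a median of 2.12, with 21 above 1 (75.0%). These stand beside 1.72 and 68 of 83 (81.9%) for the actin cytoskeleton, and 1.35 and 70.1% for all listed genes. The share of reference genes listed was 76.2% for kinesins, 47.5% for tubulin and microtubule-associated genes and 57.6% for the actin cytoskeleton, beside 21.2% of all. With 1 library a group the differences could not be tested.

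Several cell types of the testis use the genes described here, and the table does not show which of them a transcript came from. Of 53 marker genes of testis cells 6 were listed (11.3%) beside 21.2% of all reference genes. By cell type these were 1 of 8 spermatid, 1 of 7 spermatocyte, 2 of 7 spermatogonial, 1 of 6 myoid and 1 of 5 endothelial markers, and none of the 8 Sertoli, 7 Leydig or 5 macrophage markers, counts too small to order the cell types. Of the 6 markers of peritubular myoid cells, the contractile cells around the tubules, *Actg2* was listed and *Myh11* was not. The spermatid marker *Akap4* had 752 CPM in input RNA and 3118 CPM in FMRP RIP RNA, the spermatocyte marker *Sycp1* 10.5 CPM and 23.8 CPM, the spermatogonial markers *Gfra1* 1.07 CPM and 4.33 CPM and *Sall4* 1.005 CPM and 3.07 CPM, and the endothelial marker *Vwf* 8.46 CPM and 18.5 CPM. The table holds only genes called higher, so a marker outside it may still be expressed. The cell type behind each cytoskeleton transcript was not tested.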

How the data were processed

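Testis input RNA and FMRP RIP RNA of wild-type adult males were sequenced as paired-end reads, with 1 library each. The submitters' processing notes name STAR, GRCm38 and mm10. The authors deposited CPM values per gene for the genes they had called higher in the FMRP RIP. The authors' log2 fold change, linear fold change (ratio), p-value and adjusted p-value columns, made with edgeR, and the calls made from them were not used.

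The totals behind the CPM values were recovered from the step between low values, 30849871 input reads and 36506932 RIP reads. Values were whole multiples of 0.01 read, and 78.4% of the input and 78.8% of the FMRP RIP values above 0 were whole reads (within 0.005 read), so no count test was run. Reads were rounded for the intervals. If the authors scaled the libraries further, these totals are effective ones. Of 83 members, 14 had fractional reads in a library (*Dst*, *Plec*, *Myh10*, *Tln2* and *Myo6* among them).

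Symbols were matched to RefSeq (GRCm38.p6) for spans and shares, and 4636 reference genes were found in the table. Another reference gene overlaps 14 of the 83 members, and the strand setting of the counting is not given in the sources used here. The members and lists were chosen with earlier results of these data known. Role groups and families were set by symbol. Members named with full values were the highest and lowest of each role, the 5 with most input CPM and those under 100 input reads, and other members were named within their role with CPM and ratio. Single values of 3 members and some other genes are not reported here, and counts and medians include them. The steps were tested on simulated data. Software was matplotlib 3.10.9, scipy 1.17.1, pandas 2.3.3 and numpy 2.4.6, run with Python 3.11.15.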

Additional observations from a re-analysis of the deposited data

How the results depend on the processing

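The median log2 ratio of the members was 1.72. It was 1.12 with 5 CPM added, 1.91 with 1/8 CPM added, 1.98 with none added, 1.77 with at least 1 CPM required in both libraries, 1.67 for the 69 members with whole reads in both libraries, and 2.56 when the libraries were scaled on reads that fall outside the table, which multiplies FMRP RIP values by 1.92. For all listed genes the median was 1.35, and 1.04, 1.57, 1.61, 1.41 and 2.24 with 5 CPM, 1/8 CPM, no added value, the 1 CPM minimum and that scaling, so each ratio holds for the scaling used. Leaving out *Cttnbp2nl* and *Nckap5* left 1.72. The count of members with a log2 ratio above 1 was 68 and ranged from 50 with 5 CPM added, which is 60.2% of members beside 51.7% of listed genes, to 83 with that scaling, under which 4786 of the 4788 listed genes were above 1. The count at a ratio of 1.5 was 82 and ranged from 67 to 83. Of 298 values of 45 single genes under these alternatives, 94 differed from the log2 ratio with 1 CPM added by more than a margin for counting error. Of these, 42 came with that scaling, 29 with 5 CPM added and 17 with none added. The values with none added are the plain ratios. The intervals printed above were made from the same reads, so they are no check on these values. None of these alternatives could reverse a ratio above 1. No paired analysis was possible because neither group holds more than 1 library. Protein length was planned but not analysed here. Depth limits the 30 members under 100 input reads.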
